A study of Mus musculus with 8 samples.

Results

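The genes of oxidative phosphorylation were followed in RNA from mouse bone marrow mesenchymal stem cells (MSCs) with and without a conditional deletion of Mettl3, the methyltransferase that writes N6-methyladenosine (m6A) on mRNA. Members were chosen by name alone. They were the protein-coding genes of the Nduf, Sdh, Uqcr, Cox4 to Cox8 and Atp5 series, without the Ndufaf assembly factors, and the mRNAs of the mitochondrial genome for subunits of the same complexes. Of 47643 named genes in the expression table, 98 met the rule, 85 of them nuclear and 13 mitochondrial. The name rule places Ndufa4 and Ndufa4l2 with complex I, although the Ndufa4 protein has since been assigned to complex IV, and it places Atp5sl, now known as an assembly factor of complex I, with complex V.

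The RNA-seq comparison held 2 libraries labelled WT and 2 labelled cKO, and m6A was mapped in wild-type MSCs with 2 immunoprecipitates and 2 inputs, which reached a single peak list. In the cKO the floxed exons 2 and 3 of Mettl3 are removed by Prx1-Cre, a driver active in limb mesenchyme and its descendants, and the WT libraries came from littermates, Mettl3fl/fl in the study's account and wild type in the labels. All cultures were primary cells flushed from tibiae and femurs of mice labelled C57BL/6 (C57BL6/J in the study's methods), so that cells outside the Cre lineage can be present in them, and every sample had 2 days of osteogenic medium, which held dexamethasone at 100 nM, β-glycerophosphate at 5 mM and ascorbic acid at 50 µg/ml. The ages of the mice are not given in the sources used here, and nothing says whether replicate libraries came from separate animals or cultures, so that p-values measure only the spread between these libraries.

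Oxidative phosphorylation passes electrons from NADH (complex I) and succinate (complex II) through ubiquinone, complex III and cytochrome c to oxygen at complex IV. The protons pumped on the way drive ATP synthase (complex V). Complexes I, III, IV and V combine subunits from both genomes, and several nuclear subunits come in paralogous versions that cells use in different tissues or at different oxygen tensions. In the MSC lineage this machinery is known to be engaged more as cells leave the undifferentiated state.

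A library held 23948219 to 34069228 estimated counts assigned to named genes. The WT pair differed more than the cKO pair, with a biological coefficient of variation of 12.3% against 1.90%. Mettl3 itself stood at 17.6 and 16.9 CPM (counts scaled to a common library size after TMM) in WT and at 17.5 and 16.3 CPM in cKO, a log2 difference of -0.03 (edgeR adjusted p = 0.824), and a gene total that includes the exons outside the deletion does not check the genotype. For this mouse line the study reported loss of Mettl3 by immunostaining and western blot, and less m6A in MSC mRNA by mass spectrometry. The counts cannot check the single libraries, so all directions below refer to them as labelled. Of 11 markers of MSCs and stroma, 6 were lower and 4 higher in cKO. Those higher were Prrx1, Pdgfra, Pdgfrb and Thy1. The summed level was 4734 and 4571 CPM in WT against 3108 and 3152 CPM in cKO. Most of that sum came from 2 collagen genes that fell, Col1a1 (mean 1908 CPM in WT, 1242 in cKO) and Col1a2 (1810 and 820), so it does not follow the stromal markers as a set. The macrophage markers, 9 entries with Lyz2 and Csf1r among them, summed to 15219 and 19854 CPM in WT and to 20260 and 20362 CPM in cKO, with 0 lower and 1 higher (Ptprc). The 6 adipocyte markers summed to 420 and 434 CPM in WT and to 761 and 768 CPM in cKO, with 5 higher and Cidec lower. The 5 endothelial markers summed to 3.64 and 3.22 CPM in WT and to 17.1 and 14.5 CPM in cKO, with Emcn and Kdr higher. The 6 neutrophil markers summed to 2.75 and 3.54 CPM in WT and to 0.825 and 0.377 CPM in cKO. Nearly all of this was S100a8, which was lower, while S100a9, Ngp, Mpo and Ltf had 0 counts in every library. The 6 erythroid markers summed to at most 0.157 CPM. Macrophage RNA was thus present at a high level in every culture. The part of these cells in the results below was not tested, and in bulk RNA a lower level in each cell and fewer cells of the type that holds the RNA cannot be told apart.

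The oxidative phosphorylation genes were, as a group, modestly lower in cKO than in WT, and a few paralogous subunits departed far from the rest. Of the nuclear members 82 could be tested, and 42 of them fell while 2 rose (edgeR quasi-likelihood test, Benjamini-Hochberg adjusted p under 0.05). Among all 15327 genes tested, 16.8% were lower and 13.7% higher by the same test, 30.5% in either direction. The median log2 change of the nuclear members was -0.28, where the median of all genes was -0.00, and 78 of the 82 lay below 0 against 50.6% of all genes. Of the 13 mitochondrial members 9 fell and 0 rose, all 13 lay below 0, and the median was -0.39.

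The size of these falls was small. Of the 42 nuclear members that fell, 40 did so by less than 1.5-fold, and 8 of the 9 mitochondrial members likewise. In 70 nuclear and 10 mitochondrial members both cKO libraries lay below both WT libraries, an order that 35.0% of all genes showed, and in 3 nuclear members both lay above, as in 33.9% of all genes. Measured against the mean of all 4 libraries, the median nuclear member deviated by 0.06 and 0.20 (log2) in the WT libraries and by -0.14 and -0.12 in the cKO libraries. The mitochondrial members deviated by 0.12 and 0.26 in WT and by -0.16 and -0.21 in cKO. The second WT library was thus the highest in both groups of genes, and the cKO libraries were close to each other.

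The number of members past the threshold rested on the near-identical cKO pair. With 1 cKO library left out, or both summed, the share of members that fell was near or below that of all genes. With 1 WT library left out it was above that of all genes. Without cKO replicate 1 the nuclear members that fell were 6, without cKO replicate 2 they were 2, and with both cKO libraries summed to 1 sample they were 4. The mitochondrial count went from 9 to 1 in each of these 3 fits, in which the lone cKO sample was assumed to vary like the WT pair. Without WT replicate 1 the counts were 72 and 13, and without WT replicate 2 they were 63 and 11. The median change moved far less, between -0.34 and -0.21 for nuclear and between -0.41 and -0.33 for mitochondrial members over the fits that left out 1 library. On the deposited TPM, a level per length that sums to the same total in every library, limma placed 16 nuclear members lower and 3 higher and 6 mitochondrial members lower, and over all genes the split turned from 2577 lower and 2100 higher to 1203 lower and 1664 higher, with the median of all genes at 0.10. On that scale the nuclear median was -0.18 and the mitochondrial median -0.21, to be read against the shifted median of all genes.

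**Figure D1:**
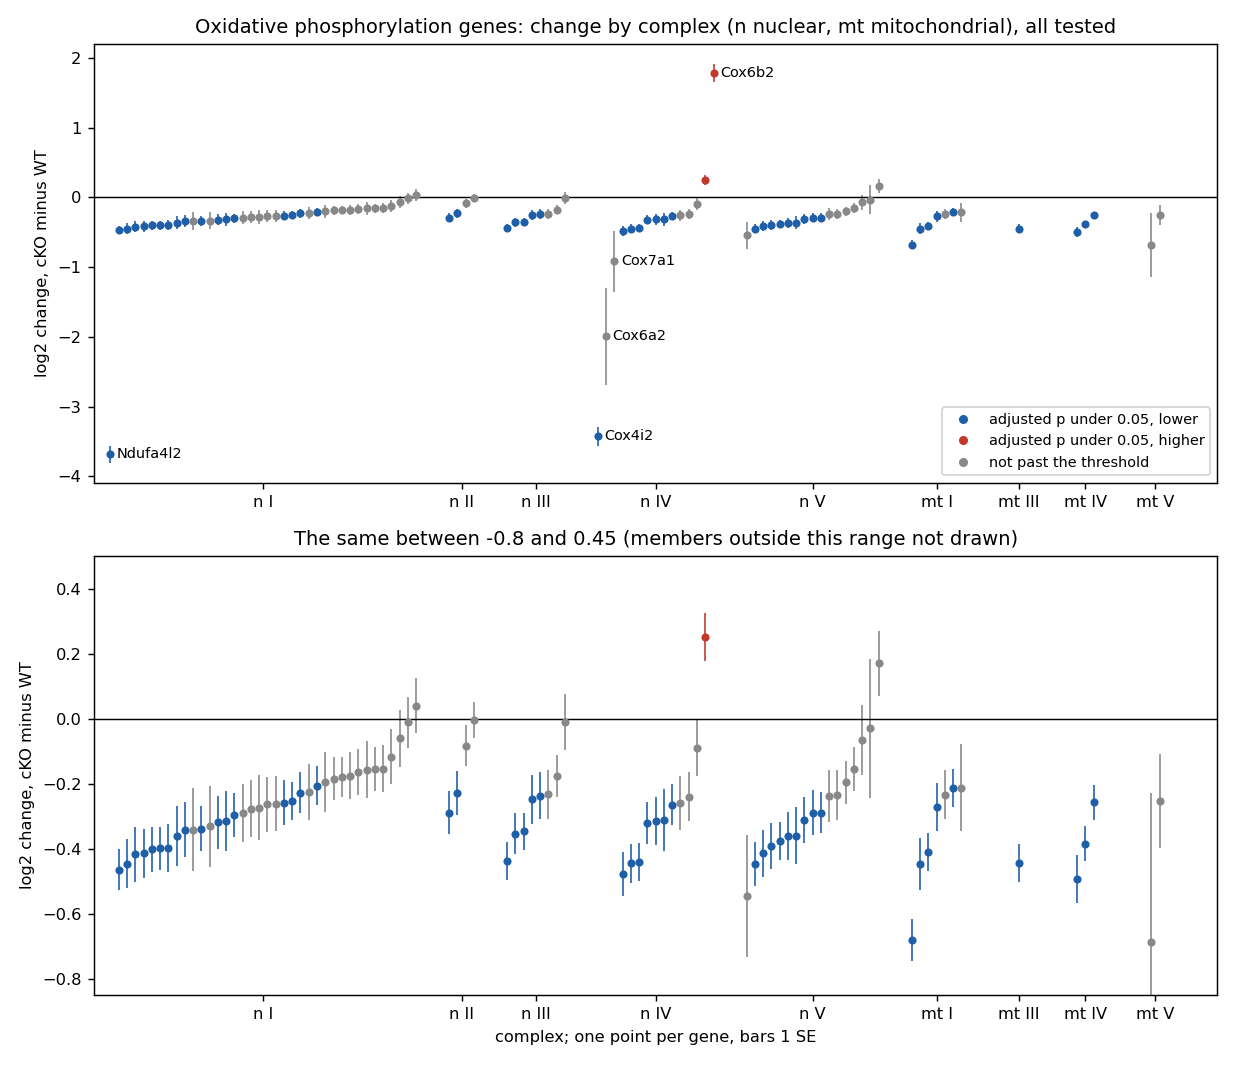
Log2 change (cKO minus WT, y axis) of each of the 95 tested members, sorted within complexes I to V, nuclear (n) and mitochondrial (mt) apart; bars are 1 SE from edgeR, blue marks adjusted p under 0.05 and lower, red higher, grey neither. Most members lie between -0.5 and 0, while Ndufa4l2 at -3.68, Cox4i2 at -3.42 and Cox6b2 at 1.78 stand far from them.

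Shorter genes were lower in cKO across the transcriptome, and most members are short. The median listed length of a nuclear member was 1381 nt, against 3781 nt over all genes tested. Among protein-coding genes with a WT mean of 20 CPM or more, 42.2% of those under 1000 nt were lower, with a median log2 change of -0.22. That share was 31.2% from 1000 to under 2000 nt, 23.1% from 2000 to under 4000 nt and 14.5% at 4000 nt or more, where the median was 0.07. Of the nuclear members, 14 of 26 under 1000 nt fell (53.8%, median -0.32), and 15 of 28 from 1000 to under 2000 nt (53.6%, median -0.26). In the longer classes 9 of 19 (47.4%, median -0.23) and 4 of 9 (44.4%, median -0.26) fell. The members thus lay below genes of like length in every class, by a margin that was narrowest among the short genes. In these classes the members were not held to the 20 CPM floor, and members above it are part of the background. With the floor and over all lengths, 41 of 75 nuclear members fell (54.7%) against 19.6% of protein-coding genes. These level and length classes were chosen after the values were seen, and the part of length in the result was not tested.

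Complex I, the NADH dehydrogenase, had 38 tested nuclear members, of which 18 fell and 0 rose. Ndufa4l2, a paralog of Ndufa4 known as a hypoxia-induced gene, changed most of all members. It lies at chr10:127514939-127517152 on the plus strand (GRCm38) and had 935 and 766 counts in the WT libraries against 47 and 73 in the cKO libraries. Both cKO libraries were far below both WT libraries, a 12.8-fold difference (log2 -3.68, SE 0.12, edgeR adjusted p = 1.37e-05). The gene overlaps Shmt2, a serine hydroxymethyltransferase on the opposite strand, which also fell (log2 -0.67, edgeR adjusted p = 0.00109). The counting is not stated to have used strand, so reads from the shared stretch cannot be assigned to one of them. The same holds in part for 15 nuclear members that overlap a gene of the opposite strand with at least 10% of their counts, among them Atp5d, whose partner Cbarp fell by 2.65 (log2).

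Ndufa4 itself, a small subunit, was one of the 5 largest falls past the threshold among nuclear members, with 114 and 122 CPM in WT against 86.3 and 84.6 CPM in cKO (log2 -0.47, edgeR adjusted p = 0.00296). Ndufa4l2 made up 10.4% and 9.78% of the TPM of the pair in WT, and 1.09% and 1.31% in cKO. By counts per kilobase the shares were 25.9% and 24.2% in WT and 3.13% and 3.75% in cKO. The paralog was thus the minor partner in all 4 libraries, and its share was lower in both cKO libraries on either scale.

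Among the catalytic core subunits of complex I, Ndufs1, which carries iron-sulfur clusters, had 79.2 and 84.7 CPM in WT and 66.4 and 70.5 CPM in cKO (log2 -0.26, edgeR adjusted p = 0.0324). Ndufv1, which binds NADH and the flavin, had 60.6 and 67.5 CPM against 48.0 and 53.0 CPM (log2 -0.34, edgeR adjusted p = 0.0262). Ndufs8, another iron-sulfur subunit, stood at 31.6 and 33.5 CPM in WT and at 33.2 and 31.5 CPM in cKO, so that its groups overlapped (log2 -0.01, edgeR adjusted p = 0.934). Core subunits thus differed in whether they passed the test. Ndufa3, an accessory subunit with the highest TPM among nuclear members of complex I, had 1558 and 1538 TPM in WT and 1380 and 1314 TPM in cKO, and did not pass (log2 -0.33, edgeR adjusted p = 0.0926). Ndufs4, an accessory subunit whose loss is a known cause of mitochondrial disease, fell from 42.6 and 41.3 CPM to 30.3 and 32.6 CPM (log2 -0.41, edgeR adjusted p = 0.00925). The 1 nuclear subunit of complex I with a value above 0 was Ndufa6 (log2 0.04, edgeR adjusted p = 0.757). Ndufs1, Ndufs8, Ndufv1 and Ndufa6 were named after their values were seen.

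Complex II, succinate dehydrogenase, is encoded in the nucleus alone and had the smallest median change, -0.16 over its 4 genes. Sdhd (log2 -0.29, edgeR adjusted p = 0.0199) and Sdhc (log2 -0.23, edgeR adjusted p = 0.0467), the membrane anchors, fell. The call of Sdhc held in 4 of 12 alternatives, over which its log2 change ran from -0.28 to -0.08. The catalytic subunits did not pass the test. Sdha, the flavoprotein, held 267 and 273 CPM in WT and 269 and 269 CPM in cKO (log2 -0.00, edgeR adjusted p = 0.969), while its TPM read 292 and 281 in WT and 333 and 356 in cKO. On the TPM scale it was higher (limma log2 0.26, adjusted p = 0.0429), so its direction depends on the unit. Sdhb, the iron-sulfur subunit, had log2 -0.08 (edgeR adjusted p = 0.364).

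Of the 8 nuclear genes of complex III, 5 fell. The Uqcrq gene for a small ubiquinone-binding subunit had 136 and 134 CPM in WT against 98.8 and 101 CPM in cKO (log2 -0.44, edgeR adjusted p = 0.0026). Uqcr11, the nuclear member of complex III with the highest TPM, had 110 and 116 CPM against 90.3 and 86.2 CPM (log2 -0.35, edgeR adjusted p = 0.0085). Neither gene showed an overlap between groups. Uqcrfs1, the Rieske iron-sulfur protein that takes electrons from ubiquinol, stood at 66.7 and 77.6 CPM in WT and at 73.2 and 70.0 CPM in cKO (log2 -0.01, edgeR adjusted p = 0.941). Its groups overlapped, as those of the catalytic Sdha did. Uqcrq and Uqcrfs1 were named after their values were seen.

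Complex IV, cytochrome c oxidase, held the widest spread, with 8 of its 15 tested nuclear members lower, 2 higher and changes from -3.42 to 1.78. Cox4i2, the oxygen-responsive version of subunit 4 that is best known from lung, lies at chr2:152754173-152765037 on the plus strand (GRCm38). It had 543 and 469 counts in WT and 38 and 47 counts in cKO, or 46.6 and 44.8 TPM against 4.72 and 4.43 TPM. The groups were about 10.7-fold apart with no overlap (log2 -3.42, SE 0.14, edgeR adjusted p = 2.29e-05). Its general partner Cox4i1 had 385 and 455 CPM in WT and 389 and 401 CPM in cKO, values that overlap (log2 -0.09, edgeR adjusted p = 0.488). By counts per kilobase Cox4i2 took 7.58% and 6.69% of the pair in WT and 0.788% and 0.718% in cKO.

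Cox6b2, the version of subunit 6b known from testis, moved the other way. The gene, at chr7:4751792-4753094 on the minus strand (GRCm38), had 348 and 225 counts in WT against 783 and 981 in cKO, or 58.6 and 40.2 TPM against 189 and 180 TPM. Both cKO libraries were above both WT libraries, 3.44-fold on average (log2 1.78, SE 0.13, edgeR adjusted p = 2.80e-04). Its general partner Cox6b1 fell, from 148 and 166 CPM to 123 and 129 CPM (log2 -0.32, edgeR adjusted p = 0.0221). Cox6b2 thus went from 9.13% and 6.25% of the TPM of the pair in WT to 27.5% and 25.6% in cKO, and by counts per kilobase from 4.24% and 2.98% to 14.4% and 13.2%.

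Cox7a2l, a paralog of Cox7a2, was the other member that rose. It had 157 and 176 CPM in WT and 200 and 196 CPM in cKO, without overlap (log2 0.25, SE 0.07, edgeR adjusted p = 0.0453). Its adjusted p lay just inside the threshold and was 0.329 without cKO replicate 1, 0.264 without cKO replicate 2 and 0.292 with both cKO libraries summed. Cox7a2, the general version of subunit 7a, fell from 82.4 and 83.8 CPM to 60.6 and 61.8 CPM (log2 -0.44, edgeR adjusted p = 0.00287). Cox7a1, the version of heart and muscle, had 44 and 81 counts in WT and 22 and 40 in cKO and did not pass (log2 -0.91, edgeR adjusted p = 0.165). The share of Cox7a2l in the TPM of these 3 genes was 51.4% and 53.2% in WT and 65.1% and 63.9% in cKO. That of Cox7a2 was 45.6% and 41.7% in WT and 33.0% and 33.6% in cKO. These are shares of RNA among genes grouped by name, and which proteins were built into complex IV was not measured.

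**Figure D2:**
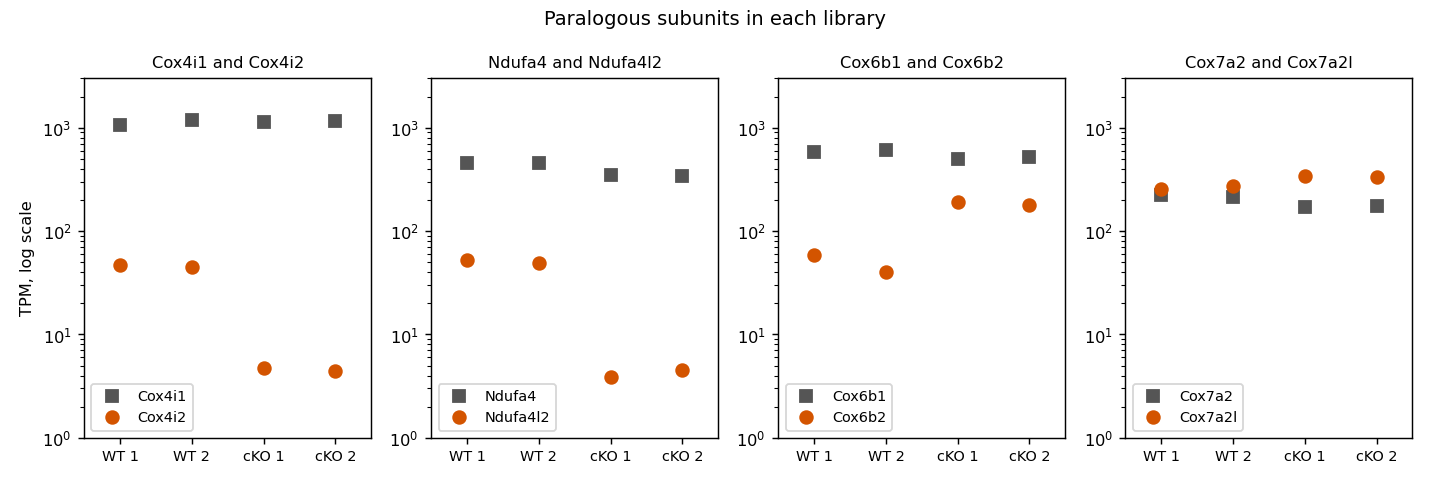
TPM (y axis, log scale) of 4 pairs of paralogous genes in each of the 2 WT and 2 cKO libraries. Grey squares mark the general form and orange circles its paralog. Cox4i2 and Ndufa4l2 lie between 44.8 and 52.7 TPM in WT and below 5 TPM in cKO, Cox6b2 lies above 180 TPM in cKO, and Cox7a2l lies above Cox7a2 in all 4 libraries, by a wider gap in cKO.

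The remaining paralogs of complex IV were near the limit of detection or dominated by 1 gene. Cox6a1, the general version of subunit 6a, had 416 and 485 CPM in WT and 374 and 380 CPM in cKO (log2 -0.26, edgeR adjusted p = 0.0591). Cox6a2, its heart and muscle version, had 47 and 12 counts in WT and 4 and 9 in cKO, and the spread within WT was wide (log2 -1.99, SE 0.70, edgeR adjusted p = 0.0762). It overlaps Itgad on the opposite strand, an integrin gene that fell (log2 -3.60, edgeR adjusted p = 0.00367). The 8 skeletal muscle markers summed to 6.80 and 6.33 CPM in WT and to 2.15 and 1.85 CPM in cKO, with Ckm, Mb, Myh1, Myh4 and Atp2a1 at 3 counts or fewer in each library. Cox8b and Cox8c reached at most 3 counts in any library and Cox7b2 had 0 counts in all 4, so these 3 members were not tested, and Cox8a held nearly all of the TPM of its family. Cox8a stood at 188 and 211 CPM in WT and at 166 and 172 CPM in cKO (log2 -0.24, edgeR adjusted p = 0.0545). Cox7b, a small subunit with no expressed paralog here, was among the 5 largest nuclear falls past the threshold, from 189 and 196 TPM to 151 and 146 TPM (log2 -0.48, edgeR adjusted p = 0.00361).

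Complex V, ATP synthase, had 9 of 17 nuclear members lower and 0 higher, with a median of -0.29. Atp5b encodes the catalytic beta subunit and had the highest TPM of all nuclear members. It held 737 and 818 CPM in WT and 631 and 641 CPM in cKO (log2 -0.29, edgeR adjusted p = 0.0231), with no overlap. Atp5l, a subunit of the membrane part, fell from 177 and 169 CPM to 132 and 134 CPM (log2 -0.38, edgeR adjusted p = 0.00515). Of the 3 genes that encode the same mature c subunit of the rotor, Atp5g1 fell (86.6 and 92.4 CPM against 67.5 and 63.8 CPM, log2 -0.45, edgeR adjusted p = 0.00448). Atp5g3, the most abundant of them, also fell (log2 -0.36, edgeR adjusted p = 0.0249). Atp5g2 had 58.4 and 57.7 TPM in WT and 56.1 and 56.8 TPM in cKO, and its CPM overlapped between groups (log2 -0.07, edgeR adjusted p = 0.687). The order of the 3 genes by TPM, Atp5g3 over Atp5g1 over Atp5g2, was the same in all 4 libraries, and the share of Atp5g3 lay between 51.3% and 54.5%.

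The 13 mitochondrial members share long transcripts and lie closely packed, so their values are not independent of each other. Together they held 5.11% and 5.14% of all TPM in the WT libraries and 4.35% and 4.26% in the cKO libraries, and 2.28% and 2.37% of counts against 1.89% and 1.87%. The nuclear members held 2.89% and 2.90% of TPM in WT and 2.56% and 2.55% in cKO. Both shares were lower in both cKO libraries, which with 2 libraries a group cannot give an exact permutation p below 0.333.

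By complex I, mt-Nd3 fell most, from 172 and 187 CPM to 112 and 112 CPM (log2 -0.68, SE 0.06, edgeR adjusted p = 7.55e-04). Its log2 change ran from -0.73 to -0.56 over the 12 alternatives. The other subunits of complex I that fell were mt-Nd6 (log2 -0.45), mt-Nd4 (-0.41), mt-Nd1 (-0.27) and mt-Nd2 (-0.21), with edgeR adjusted p from 0.00356 to 0.0347. The groups of these genes did not overlap. The values of mt-Nd5 (log2 -0.23, edgeR adjusted p = 0.0589) and mt-Nd4l (log2 -0.21, edgeR adjusted p = 0.279) did not pass. The cytochrome b gene of complex III, mt-Cytb, fell from 2451 and 2586 CPM to 1847 and 1851 CPM (log2 -0.45, edgeR adjusted p = 0.00261).

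All 3 mitochondrial genes of complex IV fell. They encode its core subunits. The log2 changes were -0.49 for mt-Co2, -0.39 for mt-Co3 and -0.26 for mt-Co1, with edgeR adjusted p of 0.00441, 0.00356 and 0.0149. Neither ATP synthase gene passed. In mt-Atp6 the cKO libraries were 642 and 505 CPM and the WT libraries 606 and 762 CPM, which overlap (log2 -0.25, edgeR adjusted p = 0.233). In mt-Atp8 the WT libraries alone spanned 7.37 and 21.8 CPM (log2 -0.69, SE 0.46, edgeR adjusted p = 0.304). The reading frames of mt-Atp8 and mt-Atp6 overlap each other, mt-Atp6 touches mt-Co3, mt-Nd4l overlaps mt-Nd4, and mt-Nd5 and mt-Nd6 share bases on opposite strands, so that counts of these genes can be split between partners. The ribosomal RNAs of the same genome, mt-Rnr1 and mt-Rnr2, summed to at most 0.266 CPM in these poly-A-selected libraries. The cause of this low level was not tested.

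**Figure D3:**
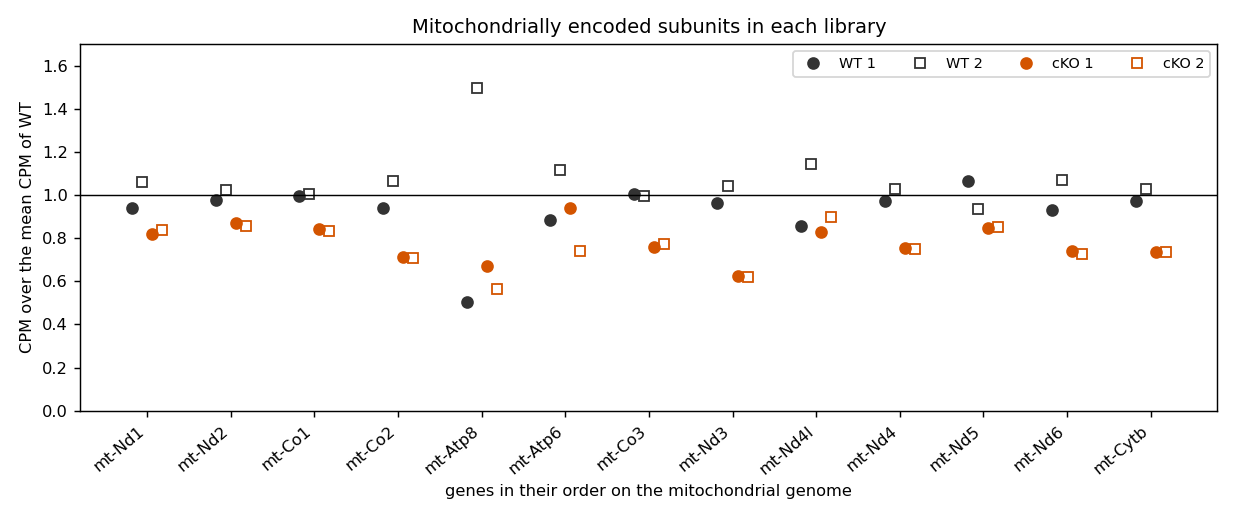
CPM of the 13 mitochondrially encoded subunits in each library divided by the WT mean of the gene (y axis, from 0), in their order on the mitochondrial genome; black WT, orange cKO, filled circles replicate 1, open squares replicate 2. Both cKO libraries lie below both WT libraries in 10 of the 13 genes, and mt-Atp8 shows the widest spread within WT.

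Levels between genes were compared per length. By mean WT TPM the mitochondrial order began with mt-Co2 (9900 TPM), mt-Co1 (8177 TPM) and mt-Co3 (5748 TPM), and the nuclear order with Atp5b (2314 TPM), Cox6a1 (1906 TPM) and Ndufa3 (1548 TPM). By CPM per kilobase of listed length mt-Co1 came before mt-Co2, and Cox6a1 led the nuclear genes, with Atp5b at rank 7 and Ndufa3 at rank 18. The deposited TPM and the counts per listed length therefore do not give one order, and mt-Atp8, at rank 5 by TPM and rank 13 by CPM per kilobase, is the clearest case.

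The other mitochondrial genes were read in lists drawn up beside the members. Carriers and other subunits had 5 of 10 tested genes lower and 1 higher (median -0.23). Cycs, the cytochrome c that links complexes III and IV, fell from 67.2 and 67.9 CPM to 51.6 and 47.3 CPM (log2 -0.45, edgeR adjusted p = 0.00503). Slc25a5, an ATP/ADP carrier of the inner membrane, fell as well (log2 -0.40, edgeR adjusted p = 0.00797), while Slc25a4, another ATP/ADP carrier at a like CPM, had 258 and 261 CPM in WT and 257 and 257 CPM in cKO (log2 -0.01, edgeR adjusted p = 0.879). Ucp2, an uncoupling-protein family carrier, rose from 366 and 357 CPM to 442 and 443 CPM (log2 0.29, edgeR adjusted p = 0.0106), and Ucp1, the uncoupler of brown fat, was near the limit of detection with 15 and 20 counts in WT and 2 and 0 in cKO.

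Of the 18 genes of the tricarboxylic acid cycle and its entry, 7 fell and 0 rose (median -0.17). Idh2, the mitochondrial NADP-dependent isocitrate dehydrogenase, fell most, from 94.0 and 101 CPM to 54.5 and 55.7 CPM (log2 -0.82, edgeR adjusted p = 3.67e-04). Mdh2, the malate dehydrogenase with the highest TPM of the list, fell (log2 -0.36, edgeR adjusted p = 0.00675). The mitochondrial ribosome had 21 of 77 genes lower and 0 higher, with a median of -0.19 and 74 below 0. Its most abundant gene by TPM, Mrps21, fell (log2 -0.35, edgeR adjusted p = 0.0134), and the largest fall past the threshold was Mrpl23 (log2 -1.04, edgeR adjusted p = 0.0127).

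Assembly factors, which build the complexes without staying in them, had 6 of 46 genes lower and 0 higher. The share lower was smaller than over all genes, while 38 of the 46 lay below 0 and the median was -0.17. Uqcc2, which acts in complex III assembly, fell from 61.4 and 72.6 CPM to 41.8 and 41.3 CPM (log2 -0.69, edgeR adjusted p = 0.00297). The machinery that copies and expresses mitochondrial DNA had 1 of 17 genes lower (median -0.03). That gene was Slirp (log2 -0.34, edgeR adjusted p = 0.015), a stabiliser of mitochondrial mRNA. The packaging and transcription factor Tfam stood at 21.7 and 21.9 CPM in WT and at 21.5 and 20.7 CPM in cKO (log2 -0.05, edgeR adjusted p = 0.702). The DNA polymerase Polg had the highest WT mean TPM of the list, 39.45, and log2 -0.33 (edgeR adjusted p = 0.0871). Ssbp1 was close to it in WT (38.23 TPM) and above it in cKO (41.4 against 33.2 TPM), with log2 0.08 (edgeR adjusted p = 0.542). The RNA polymerase Polrmt had log2 0.01 and Lrpprc, the partner of Slirp, -0.02. None of these genes passed the test. Ssbp1, Tfam, Polrmt and Lrpprc were named after their values were seen.

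The transcriptional regulators of mitochondrial biogenesis had 1 of 15 tested genes lower and 2 higher (median 0.13), and 13 lay above 0. These genes are long, with a median listed length of 5687 nt against 1777 nt for the mitochondrial ribosome. The part of length in the differences between lists was not tested. Nrip1, a corepressor of mitochondrial genes, rose from 31.7 and 31.8 CPM to 45.2 and 47.8 CPM (log2 0.55, edgeR adjusted p = 0.00261), and Myc fell (log2 -0.56, edgeR adjusted p = 0.00714). The rise of Ppara rested on 4 and 1 counts in WT and 10 and 17 in cKO. Esrra, the regulator with the highest TPM, did not pass (log2 0.19, edgeR adjusted p = 0.0785). The coactivator Ppargc1a had 13 to 20 counts in each library and a log2 change of 0.02 (edgeR adjusted p = 0.982), a level at which only a large difference could be seen.

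**Figure D4:**
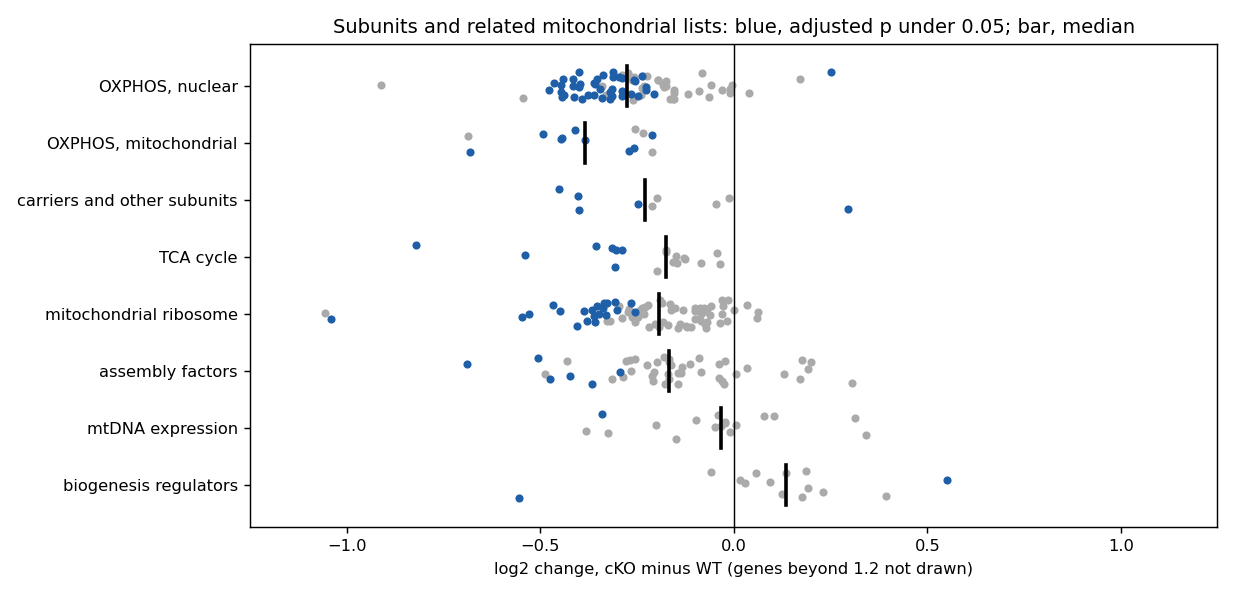
Log2 change (cKO minus WT, x axis) of each tested gene of the nuclear and mitochondrial members and of 6 related lists; blue points have an adjusted p under 0.05, grey points do not, and black bars are medians. The medians run from -0.39 for mitochondrial members to 0.13 for regulators of biogenesis, and 4 nuclear members, Ucp1 and Ppara lie outside the drawn range.

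The promoters of the nuclear members, the 250 bases before and 50 after each start in RefSeq (GRCm38.p6), were searched on both strands for 3 short motifs. A start was found for 67 of the 85 members, in 72 promoters. Cox4i2 and Ndufa4l2 were among those not matched. The core of the NRF-1 site, CATGCGC, occurred in 18.1% of member promoters and in 6.55% of the promoters of genes tested. The ETS core bound by GABP, CCGGAAG, occurred in 22.2% against 16.0%, and the core of hypoxia response elements, ACGTG, in 23.6% against 24.4%. NRF-1 and GABP are the classical activators of these genes, and a match of letters is not a measured site. Of 13 members with the NRF-1 core 3 fell (median -0.26), and of 52 tested members without it 30 fell (median -0.29). With the GABP core 7 of 16 fell (median -0.25) and without it 26 of 49 (median -0.29), and with the hypoxia core 9 of 15 fell (median -0.34) and without it 24 of 50 (median -0.27). The windows below show the NRF-1 core, in capitals, in the promoters of the nuclear member with the highest CPM per kilobase and of the nuclear subunit of complex III with the highest TPM, on the strand of the gene, at chr5:115349099-115349128 (minus strand) for Cox6a1 and chr10:80406806-80406835 (minus strand) for Uqcr11.
Cox6a1: ggaacggggcgCATGCGCgctctcgctcca
Uqcr11: tcgccttcacgCATGCGCtatacgtctgca

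Few of the members held an m6A peak. Of 82 nuclear members matched to the mm9 annotation, 8 held the summit of a peak (9.76%), while 41.6% of all 14381 tested genes on that annotation did. With the summit in an exon the figures were 4 members (4.88%) against 39.4%. Among genes with a WT mean of at least 10 TPM they were 8 of 80 members (10.0%) against 47.7%. Peaks were fewer on short genes in general. Under 1000 nt 0 of 26 members had a summit against 15.5% of protein-coding genes, from 1000 to under 2000 nt 7.14% against 27.4%, from 2000 to under 4000 nt 26.3% against 38.9%, and at 4000 nt or more 11.1% against 51.5%. The share of members was the lower one in each class, with no replicate of the peak list to put an error on it.

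**Figure D5:**
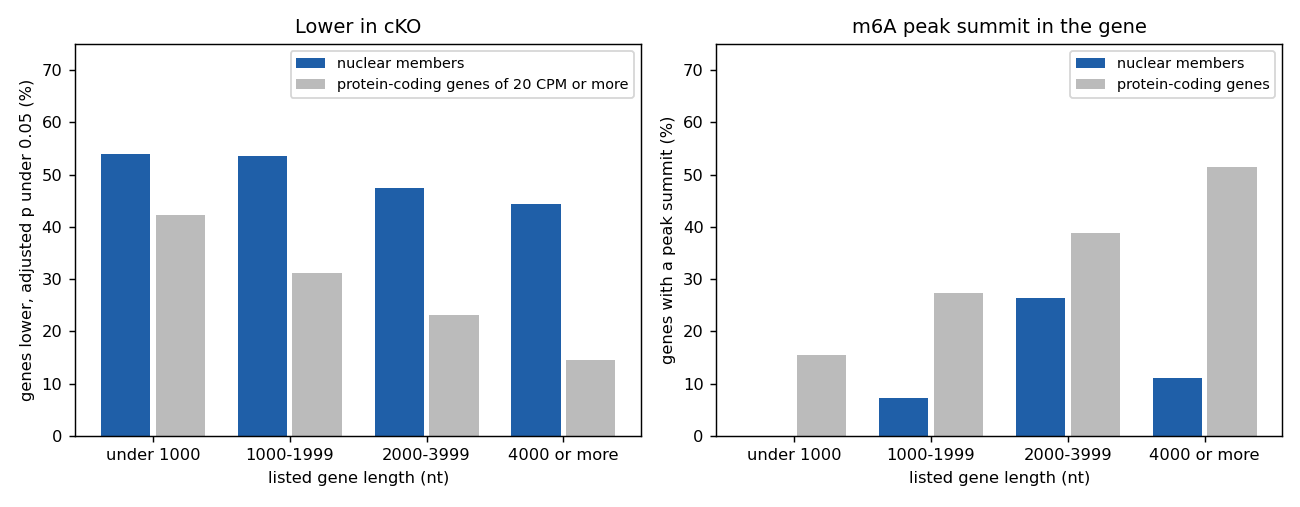
Share of genes (y axis, percent) in 4 classes of listed gene length. Left, genes lower in cKO, nuclear members of any level in blue and protein-coding genes with 20 CPM or more in grey. Right, genes with an m6A peak summit, nuclear members in blue and protein-coding genes tested in grey. The grey sets include the members. The share of members lower in cKO, 53.8% to 44.4%, is the higher bar in each class, and the share with a peak is the lower bar in each class.

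Of the 4 exonic peaks, those of Cox7a2l and Atp5sl lay in the 3′UTR, Ndufv3 had its peak in the coding sequence and Ndufb7 in the 5′UTR. The peak of Cox7a2l was the strongest of them by coverage, with a pileup of 180 reads at the summit (rank 176 of 10160 peaks), a fold enrichment of 4.07 and a −log10 q of 48.4, and its summit lay 289 nt past the last coding base. Cox7a2l was also 1 of the 2 nuclear members that rose. The summit in Atp5sl lay 206 nt past its last coding base (fold enrichment 5.48, pileup 92), and Atp5sl had a log2 change of 0.17 that did not pass (edgeR adjusted p = 0.243). Ndufv3, a subunit gene of complex I, fell as a whole gene (log2 -0.40, edgeR adjusted p = 0.00754) and had a peak of 3.65-fold enrichment. Its summit lay at -1047 nt (upstream) from the last coding base of the longest annotated coding form that holds it. Whether other forms of the gene hold the peak was not tested. Ndufb7, with a peak of 9.57-fold enrichment, had log2 -0.18 (edgeR adjusted p = 0.0774). The windows below, of the mm9 (NCBIM37) reference, hold the GGAC core of the m6A motif (capitals) nearest to each summit, on the strand of the gene. They lie at chr17:83901618-83901647 (minus strand), chr7:26410023-26410052 (plus strand) and chr17:31664764-31664793 (plus strand). The motif was 24 nt from the summit in Cox7a2l, 76 nt in Atp5sl and 340 nt in Ndufv3, and the peak of Ndufb7 held 0 such motifs.
Cox7a2l: gctcagggcctcgGGACtcaggcggtgtct
Atp5sl: gaagactgagtcaGGACtggctgactgcag
Ndufv3: cctaagaagaaatGGACcaagcctgtagaa

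The other 4 nuclear members with a summit, Atp5g3, Ndufs4, Sdhc and Atp5o, had it in an intron. The peak in Ndufs4 had a pileup of 7 reads, and that in Atp5o lay in an exon of Itsn1, a gene on the other strand, so that this peak cannot be assigned to one of them. Atp5g3, Ndufs4, Sdhc and Atp5o all fell. On the mitochondrial genome the list held 3 peaks, in mt-Nd2, mt-Co2 and mt-Cytb, with fold enrichments of 3.15, 1.98 and 2.11 against a median of 4.03 over all peaks. None of the 3 contained GGAC, and the list gives no strand. Cox4i2, Ndufa4l2 and Cox6b2, the members with the largest changes, had no peak in the list.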

How the data were processed

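RNA-seq gave 2 WT and 2 cKO libraries, and MeRIP-Seq from 2 immunoprecipitates and 2 inputs. For RNA-seq the authors used FastQC and FASTX for read quality, HISAT2 (2.0.4) for mapping and Ballgown for testing; the submitters' processing notes also name TopHat, MACS2, mm10 and mm9. The counting tool and its strand setting are not given in the sources used here. The authors deposited estimated counts per gene (expected counts, not normalized) and a column headed FPKM that has the same sum in each library, as TPM does. The deposited peak list gives the pileup signal, the fold enrichment (a ratio over background) and −log10 p-values and q-values from the authors' peak caller, as 1 list for all MeRIP samples, so replicates cannot be compared; its positions fit mm9. All columns of per-sample values were used.

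The 89 of 47732 entries without a gene name (0.110% to 0.125% of counts) were left out. Counts were rounded and tested with edgeR 4.0.16 (filterByExpr, TMM, glmQLFit and glmQLFTest, two-sided, no block, R 4.3.3), with Benjamini-Hochberg adjustment over 15327 genes; DESeq2 1.42.0 and limma 3.58.1 were alternatives. The log2(TPM + pseudocount) fits used 0.1 or 1 and genes of a mean of at least 1 TPM. In simulated data with the same spread in both groups, the fit recovered 77% of genes changed by 1 (log2) and 91% of those changed by 2. Changes as small as those of most members, and the unequal spread of the WT and cKO pairs, were not simulated. Same-numbered libraries did not deviate together (r = 0.03 across genes), so the numbers were not treated as pairs. Peak summits were placed on the GENCODE vM1 genes of mm9, and expression coordinates are those of GRCm38. Named genes were each mitochondrial member, per complex the highest TPM, the 5 largest rises and falls, all members of the paralog families and all with a peak, and per list the highest TPM and the largest rise and fall past the threshold; any other gene was named after its values were seen. Members, lists and tests were chosen with earlier results of these data known. Counts without molecular identifiers are not independent molecules.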

Additional observations from a re-analysis of the deposited data

How the results depend on the processing

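The direction of the nuclear and mitochondrial medians was below 0 in all 12 alternatives, and the number of calls varied. Over all genes 4677 were called, against 2867 by limma on log2(TPM + 0.1), 115 by an ordinary linear model on log2(TPM + 1) (3760 at an unadjusted p under 0.05), 2012 with both cKO libraries summed to 1 sample, and 1867 to 8750 with 1 library left out. The nuclear members that fell numbered 16, 1 and 4 under the first 3 of these and 2 to 72 with 1 library left out, and those that rose numbered 0 by the linear model, 1 with the sum and 1 to 3 with 1 library left out. The mitochondrial members that fell numbered 0 by the linear model (7 at an unadjusted p under 0.05), 1 with the sum and 1 to 13 with 1 library left out. The median of nuclear members was -0.18 in both TPM fits and that of mitochondrial members -0.21. With the replicate number as a block, 49 nuclear and 8 mitochondrial members fell and 2 nuclear members rose among 4881 calls; the numbers are shared labels only (r = 0.03), and no median changed sign. Without a filter on low counts 58 nuclear and 13 mitochondrial members fell, and by DESeq2 34 and 8. Ndufa4l2, Cox4i2 and Cox6b2 kept their direction in all 12 alternatives, and Cox4i2 passed in each of them; Ndufa4l2 and Cox6b2 missed the threshold in the linear model alone, with adjusted p of 0.0585 and 0.125. The nuclear members below 0 numbered 78 in the test reported, 71 in both TPM fits and 72 without WT replicate 2. Among the named genes 5 turned sign. Sdha was 9.911e-05 without the filter, 0.001304 with median-of-ratios factors, 0.001854 by DESeq2, 0.2642 by limma and 0.2635 by the linear model on TPM, 0.00317 with the sum and -0.015 to 0.01148 with 1 library left out. Cox4i1 was 0.01823 by limma and 0.01821 by the linear model. With 1 library left out Cox4i1 ran from -0.1987 to 0.03488, Atp5g2 from -0.1751 to 0.05502, mt-Nd4l from -0.3974 to 0.01182 and mt-Atp8 from -1.282 to 0.2767, and each was above 0 without WT replicate 2. As a share of counts in place of TPM, the log2 difference was -0.22 in place of -0.18 for nuclear and -0.31 in place of -0.25 for mitochondrial members. With peaks at or above the median −log10 q, 1 mitochondrial member kept a peak. Causes of these shifts were not tested. With 2 libraries a group, differences of the size seen in most members rest on the spread borrowed across genes.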
